A study of Mus musculus with 6 samples.

Results

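The genes described here are Slc2a1, which encodes the glucose transporter GLUT1, and 9 genes of glycolytic enzymes, Hk1, Hk2, Pfkp, Pfkl, Aldoa, Pgk1, Eno1, Pkm and Ldha. They are a set given by name, 10 of the 18152 genes in the deposited table, and were chosen with earlier results of these data known, although no measured value enters the rule. RNA‐seq was done on the inner enamel epithelium (IEE) of the mandibular first molar of mouse embryos at E18.5, cut out of frozen head sections by laser capture microdissection. The 3 control libraries are labelled WT. The methods of the study give their genotype as Kdf1 fl/fl. The 3 cKO libraries, labelled Kdf1 deletion, were made from the K14-Cre;Kdf1 fl/fl genotype, where the keratin 14 promoter drives Cre in epithelium, so that Kdf1 is deleted there and kept in other cells. Both genotypes carry the floxed alleles on a C57BL/6J background, and the labels name no other agent. The study asked how loss of epithelial Kdf1 changes the molar cusp, and examined PI3K/AKT/mTOR signalling, a pathway known to act on glucose uptake and glycolysis. The comparison made here asks whether the transcripts of glucose uptake and glycolysis differed between the genotypes.

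Glycolysis splits glucose into pyruvate in the cytosol and yields ATP and NADH, and lactate dehydrogenase returns the NADH to NAD by turning pyruvate into lactate. Glucose enters by facilitated diffusion through GLUT1, hexokinase traps it as glucose 6-phosphate, and phosphofructokinase makes the committed step. Many of these genes are classical targets of HIF1 and MYC, and growing epithelia, the enamel organ among them, take up and store much glucose.

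HIF1 binds the letters ACGTG or GCGTG, and the promoters of the 10 genes were therefore searched for them on both strands. RefSeq promoter windows of GRCm38.p6, each of 300 bases with 250 before and 50 after a transcript start, were found for 10 of the 10 genes, 17 windows in all. At least 1 window with a match was found for 10 of the 10 genes, and 66.1% of the 11222 tested genes with a window also had one. At least 2 matches in 1 window were found for 8 of the 10 genes and for 36.9% of those tested genes. At least 3 were found for 3 of the 10 genes (Hk1, Pfkp and Ldha) and for 17.9% of those tested genes. A match is a string of letters in the window and does not show that a factor binds there. The letters searched for hold CG, and neither base content nor the number of windows per gene was matched in these comparisons.

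Ldha, Pgk1 and Eno1 were among 7 genes with the order cKO 2, cKO 1, cKO 3 from high to low, and Slc2a1 among 3 with the opposite order. That order alone does not single them out, and a link between matches and order was not tested. For these 4 genes, as examples, the 250 bases before the start are printed. They lie at chr7:46845554-46845803 on the plus strand for Ldha, at chrX:106186850-106187099 on the plus strand for Pgk1, at chr4:150236947-150237196 on the plus strand for Eno1 (the second of its 3 windows) and at chr4:119108495-119108744 on the plus strand for Slc2a1. Capitals mark ACGTG or GCGTG on the strand shown, or their reverse complements CACGT and CACGC, and the palindrome CACGTG counts as 2 matches.
Ldha: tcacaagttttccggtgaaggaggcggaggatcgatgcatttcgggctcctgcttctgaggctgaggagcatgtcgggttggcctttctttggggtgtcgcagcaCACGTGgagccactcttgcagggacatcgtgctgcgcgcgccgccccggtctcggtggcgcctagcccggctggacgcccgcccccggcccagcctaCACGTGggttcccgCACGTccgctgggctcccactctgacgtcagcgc
Pgk1: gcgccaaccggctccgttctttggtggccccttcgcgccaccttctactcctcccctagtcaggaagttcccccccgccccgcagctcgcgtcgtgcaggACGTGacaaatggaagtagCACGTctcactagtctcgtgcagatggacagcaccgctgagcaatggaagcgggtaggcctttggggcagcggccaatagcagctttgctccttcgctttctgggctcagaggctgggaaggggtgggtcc
Eno1: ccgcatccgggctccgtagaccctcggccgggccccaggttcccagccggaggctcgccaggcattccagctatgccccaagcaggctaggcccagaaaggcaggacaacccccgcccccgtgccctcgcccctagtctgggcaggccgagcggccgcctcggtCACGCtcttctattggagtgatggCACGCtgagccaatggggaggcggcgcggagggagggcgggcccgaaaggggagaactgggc
Slc2a1: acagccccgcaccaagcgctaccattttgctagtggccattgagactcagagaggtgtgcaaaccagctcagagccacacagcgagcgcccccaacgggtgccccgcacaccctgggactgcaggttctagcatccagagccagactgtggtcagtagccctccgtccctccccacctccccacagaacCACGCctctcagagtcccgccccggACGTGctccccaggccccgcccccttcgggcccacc
The upstream stretch of Ldha held 5 matches, and those of Pgk1, Eno1 and Slc2a1 held 2 each. The other Ldha window held 1 upstream match. For the other genes with the library order of Ldha, the upstream matches per window were 1 for Pfkl, 0 and 1 for Pkm, 0, 1 and 1 for Aldoa, and 0 and 3 for Hk1. The build behind the deposited table is not given in the sources used here, and no value of the table was placed by coordinate.

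The libraries held between 14713918 and 16675133 counts, and levels are given as CPM, the counts scaled to an equal total by library size and TMM factors of 0.950 to 1.03, for comparing libraries, or as the deposited TPM, which also account for transcript length, for comparing genes. A count of 0 allowed up to 0.182 to 0.198 CPM, far below every value of the 10 genes, and such floors cover counting error only. Kdf1 was measured at 836, 731 and 835 counts in the controls and at 0, 1 and 0 counts in cKO, as the genotype labels state. Epithelial keratin Krt5 was detected in each library, at 4814, 3539 and 5790.3 CPM in the control libraries and 2209, 2338 and 3402 CPM in the cKO libraries, together with the collagen Col1a1, the most abundant gene of the papilla list and one that bone cells also make, at 2062, 12956 and 8374 CPM in the control libraries and 4368, 5559.8 and 7036 CPM in the cKO libraries. Markers of epithelium and of mesenchyme were thus both present in each group. In such bulk samples, fewer cells of a type and less RNA per cell cannot be told apart.

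The 10 genes differed widely in level, and the order of the enzymes along the pathway was not the order of their transcripts. In control, Pkm, the pyruvate kinase of most growing tissues, was highest at 967 ± 91.4 TPM (SD, n = 3), followed by Eno1 at 783 ± 36.1, Aldoa at 627 ± 87.0, Ldha at 548 ± 99.0 and Pgk1 at 308 ± 60.6 TPM. The genes of the entry steps followed at lower levels, with Hk2 at 73.3 ± 8.72, Slc2a1 at 67.6 ± 16.7, Pfkl at 55.9 ± 13.3, Hk1 at 40.2 ± 3.97 and Pfkp at 11.4 ± 0.783 TPM. Of the neighbours in this order, Aldoa and Ldha, Hk2 and Slc2a1, Slc2a1 and Pfkl, and Pfkl and Hk1 overlapped between libraries, and the other pairs did not. In cKO, Ldha at 598 ± 253 TPM stood above Aldoa at 562 ± 138 TPM in the mean but in 1 of 3 libraries only, and the rest of the order was that of the controls. The only neighbours in cKO whose TPM did not overlap were Pgk1 above Hk2, and Hk1 above Pfkp. The genes from Aldoa to Ldha were thus more abundant than the 5 entry genes in both genotypes, each of them above every entry gene in each library.

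**Figure D1:**
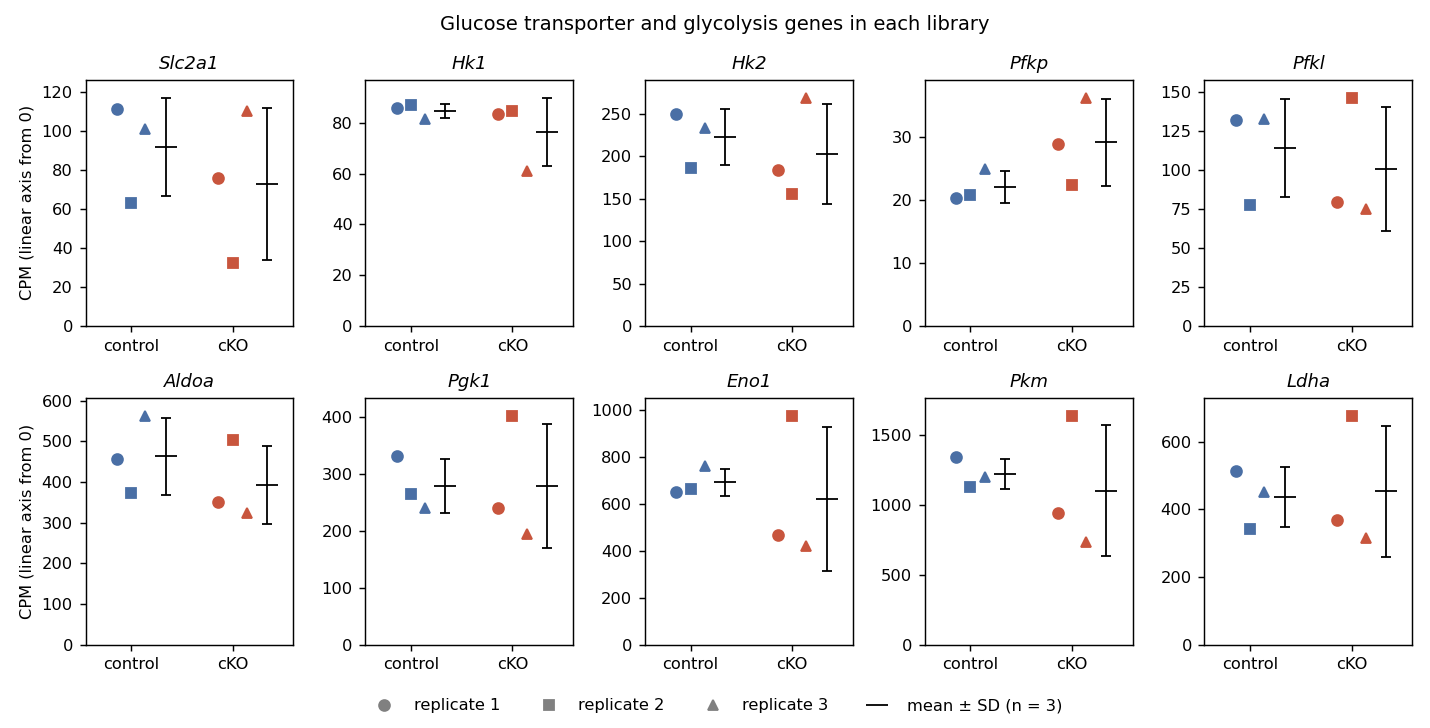
Level of each of the 10 genes in CPM (linear axis from 0) in the 3 control libraries (blue) and the 3 cKO libraries (red). Marker shapes give the replicate number, and the black bars give the mean ± SD. The groups overlap for 10 of 10 genes, and for Pfkl, Pgk1, Eno1, Pkm and Ldha the cKO 2 library is the highest and cKO 3 the lowest of the 6.

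Uptake was represented by Slc2a1, and its 3 cKO libraries spread over a wider range than any other of the 10 genes in either group. Slc2a1 was measured at 111, 63.1 and 101 CPM in control 1, 2 and 3 and 75.9, 32.2 and 110.0 CPM in cKO 1, 2 and 3. The lowest library was cKO 2, which lay below each control, while cKO 3 lay beside the highest control, so the groups overlapped. In edgeR the log2 fold change of Slc2a1 was -0.33 (SE 0.43, 95% interval -1.34 to 0.67, adjusted p = 0.662). Within cKO the highest library held 3.41 times the CPM of the lowest, against 1.76 times in control. Without cKO 2 the log2 fold change of Slc2a1 was 0.053, and without cKO 3 it was -0.73. In neither was it called, where 1 gene of all those tested was called without cKO 2 and 623 without cKO 3.

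Of the hexokinases, Hk1 is the housekeeping form and Hk2 the form that is induced by growth signals and low oxygen. Hk1 was measured at 85.7, 86.9 and 81.7 CPM in control 1, 2 and 3 and 83.5, 84.8 and 60.9 CPM in cKO 1, 2 and 3, and 5 of the 6 libraries lay close together with cKO 3 below them. Hk1 had a log2 fold change of -0.15 (SE 0.15, 95% interval -0.50 to 0.20, adjusted p = 0.566). The controls of Hk1 differed by a ratio of only 1.06 from lowest to highest CPM. Hk2 was measured at 249.6, 186 and 232 CPM in control 1, 2 and 3 and 184, 155 and 268 CPM in cKO 1, 2 and 3. The highest and the lowest of the 6 Hk2 values were both cKO libraries, cKO 3 and cKO 2. Hk2 had a log2 fold change of -0.14 (SE 0.22, 95% interval -0.66 to 0.38, adjusted p = 0.738).

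The phosphofructokinases Pfkp, named for platelets, and Pfkl, named for liver, encode subunits of the same tetrameric enzyme. Pfkp was measured at 20.3, 20.8 and 25.0 CPM in control 1, 2 and 3 and 28.9, 22.4 and 36.2 CPM in cKO 1, 2 and 3. It was the lowest of the 10 genes and the one with the lowest p, and cKO 1 and cKO 3 lay above each control while cKO 2 lay among them. Between genotypes, Pfkp had a log2 fold change of 0.41 (SE 0.20, 95% interval -0.071 to 0.88, adjusted p = 0.262), with an unadjusted p of 0.0842 in edgeR. With the replicate number as a block its unadjusted p was 0.0446 and its adjusted p 0.160. The annotation (GENCODE M21) places Pfkp over exons of Pitrm1 on the other strand. Pitrm1 was detected at 192, 163 and 172 CPM in control 1, 2 and 3. In cKO 1, 2 and 3 it was detected at 187, 164 and 249 CPM. The cKO libraries thus had the same order for Pitrm1 as for Pfkp, while the control libraries did not. Since the strand setting of the counting is not given, reads of the pair cannot be fully told apart. The part of Pitrm1 reads in the values of Pfkp was not tested. Pfkl was measured at 132, 77.7 and 133 CPM in control 1, 2 and 3 and 79.8, 146 and 75.3 CPM in cKO 1, 2 and 3. Its values formed a high set (control 1, control 3 and cKO 2) and a low set (control 2, cKO 1 and cKO 3) that crossed the genotypes. Between genotypes, Pfkl had a log2 fold change of -0.19 (SE 0.31, 95% interval -0.92 to 0.55, adjusted p = 0.748).

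Aldolase splits the phosphorylated sugar, and phosphoglycerate kinase makes the first ATP of the pathway. Aldoa was measured at 457, 372 and 562 CPM in control 1, 2 and 3 and 352, 503 and 325 CPM in cKO 1, 2 and 3. The 2 lowest Aldoa values were cKO 1 and cKO 3, and cKO 2 lay between control 1 and control 3. Aldoa had a log2 fold change of -0.24 (SE 0.22, 95% interval -0.76 to 0.28, adjusted p = 0.543). Pgk1 was measured at 332, 264 and 240.1 CPM in control 1, 2 and 3 and 239.9, 401 and 194 CPM in cKO 1, 2 and 3. Its cKO libraries surrounded the controls on both sides. For Pgk1 the fit gave a log2 fold change of -0.0031 (SE 0.28, 95% interval -0.65 to 0.65, adjusted p = 0.996), the one nearest to 0 of the 10.

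Enolase 1 and pyruvate kinase M catalyse the last steps to pyruvate, and lactate dehydrogenase A favours lactate. Eno1 was measured at 649, 664 and 759 CPM in control 1, 2 and 3 and 466, 973 and 421 CPM in cKO 1, 2 and 3. The 3 controls were close together, and the cKO libraries lay above them once and below them in the other cases. For Eno1 the fit gave a log2 fold change of -0.16 (SE 0.32, 95% interval -0.90 to 0.59, adjusted p = 0.792). Pkm was measured at 1341, 1125 and 1202 CPM in control 1, 2 and 3 and 938, 1633 and 736 CPM in cKO 1, 2 and 3. Pkm had the same arrangement as Eno1, with cKO 2 above and cKO 1 and cKO 3 below the controls. For Pkm the fit gave a log2 fold change of -0.15 (SE 0.29, 95% interval -0.83 to 0.53, adjusted p = 0.783). Ldha was measured at 515, 341 and 452 CPM in control 1, 2 and 3 and 369.8, 676 and 316 CPM in cKO 1, 2 and 3. The highest and the lowest Ldha values were again cKO 2 and cKO 3. For Ldha the fit gave a log2 fold change of 0.058 (SE 0.30, 95% interval -0.66 to 0.77, adjusted p = 0.928).

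No difference between the genotypes was detected for any of the 10 genes. All 10 passed the filter on low counts, and 0 of the 10 were called by edgeR's quasi-likelihood test at an adjusted p of at most 0.05, where 0.545% of the 14131 genes tested were called. Under the criterion in the study's appendix, which also asks for a log2 fold change of 1 or more in size, it was 0 of 10 against 0.432% of tested genes (61 genes). The study's own count of differentially expressed genes was larger, and it does not name the test behind that count. By the replicate block it was 0 of 10 against 9.87%, and by DESeq2 0 of 10 against 12.6%. At an unadjusted p of at most 0.05 there were 0 of 10 in edgeR, where 24.5% of tested genes passed, 0 of 10 in DESeq2 and 1 of 10 (Pfkp) with the block. For DESeq2 and the block the share of all tested genes at this unadjusted threshold was not counted, so the Pfkp value has no background beside it. The groups did not overlap in CPM for 0 of the 10 genes and for 30.7% of tested genes. The median log2 fold change of the 10 genes was -0.15, with 8 fits below 0 and 2 above (Pfkp and Ldha), against -0.004 over all genes tested, of which 50.5% were below 0. A missing call does not show equal levels, and the 95% intervals give the sizes left possible. For 9 of the 10 genes the interval lay between a log2 fold change of -1 and 1, and for Slc2a1 it reached below -1.

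**Figure D2:**
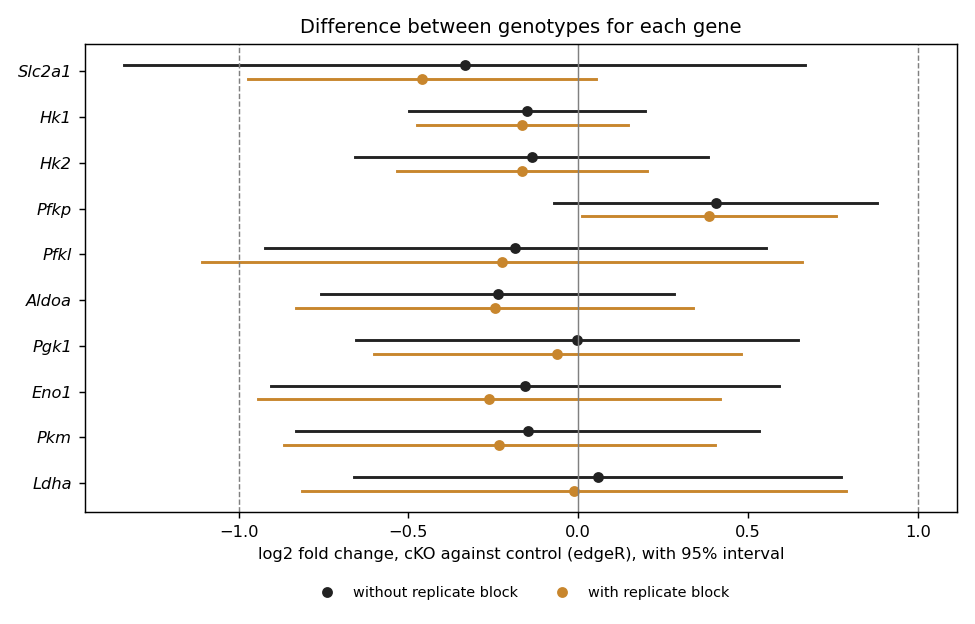
Log2 fold change (cKO against control, edgeR) of each of the 10 genes with its 95% interval, without (black) and with (orange) the replicate number as a block. Dashed lines mark log2 fold changes of -1 and 1. Each black interval includes 0, Slc2a1 without the block and Pfkl with it reach below -1, and with the block the interval of Pfkp starts at 0.012.

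The spread between cKO libraries was wide beside the difference between genotypes. For 9 of the 10 genes the SD of log2 CPM in cKO was larger than the size of the log2 fold change, the exception being Pfkp. The SD of log2 CPM was larger in cKO than in control for 10 of the 10 genes, and for 70.3% of the tested genes with a count in every library. The median SD of the 10 genes was 0.232 in control and 0.536 in cKO, and over those tested genes it was 0.169 and 0.269. In cKO 2 against cKO 3, the CPM ratio was 2.31 for Eno1, 2.22 for Pkm, 2.14 for Ldha, 2.07 for Pgk1, 1.94 for Pfkl, 1.55 for Aldoa and 1.39 for Hk1. For Pfkp, Hk2 and Slc2a1 the same ratio was 0.619, 0.579 and 0.293. The transporter, the inducible hexokinase and the platelet phosphofructokinase thus had the reverse order of cKO libraries to the other 7 genes. Pitrm1, whose exons overlap Pfkp, had this reverse order too, and its part in the Pfkp values was not tested.

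Among the 10 genes, cKO 2 was the highest and cKO 3 the lowest of the 6 libraries for 5 (Pfkl, Pgk1, Eno1, Pkm and Ldha), and this held for 3.90% of the 14131 genes tested (551 genes). The order cKO 2, cKO 1, cKO 3 from high to low held for 7 of the 10 and for 17.5% of genes tested. The opposite order held for the other 3 (Slc2a1, Hk2 and Pfkp) and for 19.3%. This pattern was noticed in these values and is given as a description without a test. Of the 14 other glycolysis genes tested, 2 had cKO 2 highest and cKO 3 lowest, namely Ldhb, the other common lactate dehydrogenase, and Gapdh, glyceraldehyde 3-phosphate dehydrogenase, which was named after its values were seen. Gapdh was measured at 2227, 1953 and 1888 CPM in the control libraries and 1647, 2517 and 1606 CPM in the cKO libraries. The order cKO 2, cKO 1, cKO 3 held for 3 of these 14 genes (Pfkm, Gapdh and Ldhb), and the opposite order for 1 (Eno2). The summed TPM of the 10 genes was 3739, 3267 and 3440.0 in control 1, 2 and 3 and 3015, 4721 and 2343 in cKO 1, 2 and 3, or between 0.234% (cKO 3) and 0.472% (cKO 2) of all transcripts. Leaving out cKO 2 moved the log2 fold change of Eno1 to -0.61, of Pfkl to -0.53, of Pkm to -0.51, of Pgk1 to -0.33 and of Ldha to -0.31. Leaving out cKO 3 moved that of Pgk1 to 0.22, of Pkm to 0.089 and of Eno1 to 0.071. In each omission 0 of the 10 genes were called, and the lowest adjusted p of any of them was 0.125 (Eno1). Over all genes tested, 1 was called without cKO 2 and 623 without cKO 3. Without control 1, control 3 or cKO 1 it was also 1 gene, and without control 2 it was 16. With so few calls among all genes, a missing call in these omissions says little about the 10.

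**Figure D3:**
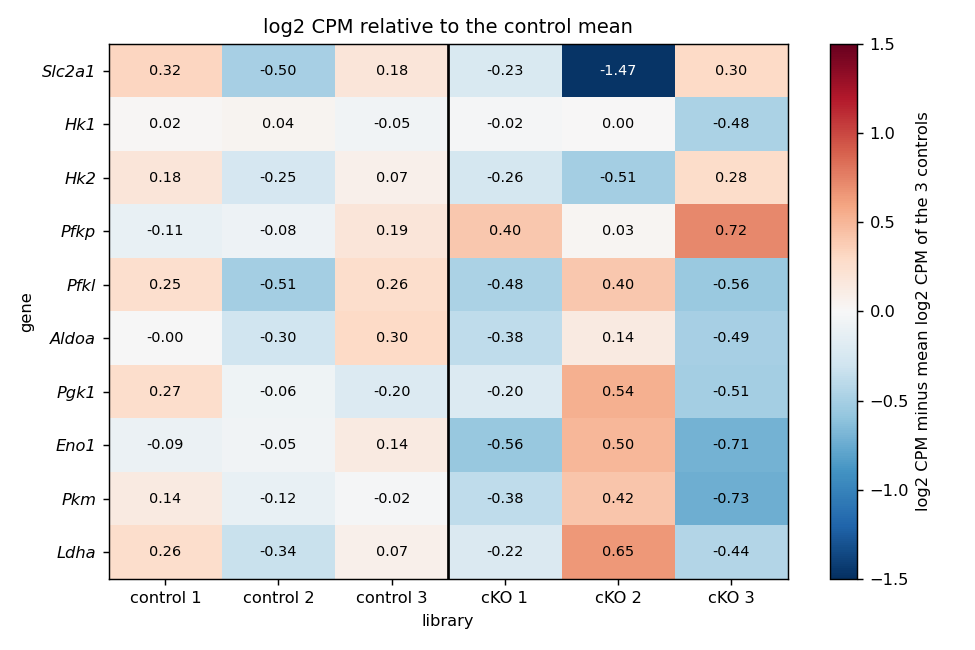
Log2 CPM of each of the 10 genes in each library minus the mean log2 CPM of the 3 controls (red above, blue below, values printed). The cKO 2 column is red for the genes from Pfkl to Ldha and darkest blue for Slc2a1, at -1.47, and the cKO 3 column is blue for the same genes and red for Slc2a1, Hk2 and Pfkp.

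Markers of other cells were measured beside these values. The 14 dental epithelium markers summed to 14433 to 29448 CPM in control and 6057 to 10169 CPM in cKO. Within this sum Amelx, which encodes the enamel protein amelogenin, held 1244, 4584 and 10697 CPM in control 1, 2 and 3. In cKO 1, 2 and 3 it held 2.59, 51.8 and 224 CPM, so the sum is not a measure of epithelial cells alone. The 14 dental papilla markers summed to 4390 to 22811 CPM in control and 11537 to 13778 CPM in cKO. Abundant collagens make up most of the papilla sum. Gene by gene, the papilla list had a median log2 fold change of 1.49 with 10 of 14 fits above 0, and 8 genes were called higher and 1 lower in cKO both with the block and in DESeq2. The epithelial list had a median log2 fold change of -0.83 with 13 of 14 fits below 0, and 8 genes were called lower with the block and 6 in DESeq2, with none higher. Within cKO the epithelial sum was 6287, 6057 and 10169 CPM in cKO 1, 2 and 3, so that cKO 3, the lowest cKO library in 7 of the 10 genes, was the highest in epithelial marker RNA. Endothelial markers summed to 1082, 637 and 368 CPM and immune markers to 218, 89.9 and 54.5 CPM in cKO 1, 2 and 3, against 314 to 396 and 34.7 to 72.0 CPM in control. Erythroid markers, of cells that live on glycolysis, summed to 831 to 1302 CPM in control and 799 to 1284 CPM in cKO. Skeletal muscle markers summed to at most 17.7 CPM in any library, with 6 of the 10 below the filter. Neutrophil markers summed to 3.33 to 5.65 CPM in control and 30.4 to 77.3 CPM in cKO, and cartilage and bone markers to 1063 to 1360.2 CPM in control and 776 to 926 CPM in cKO. Most of that control sum was Alpl, at 849 ± 67.6 CPM in control and 445 ± 20.2 CPM in cKO (SD, n = 3 each). Gene by gene the cartilage and bone list went both ways, with 3 called higher and 2 lower in cKO by DESeq2. Over the 8 marker lists edgeR called 8 genes without the block. The neutrophil markers S100a8, S100a9, Ngp, Lcn2 and Ltf and the papilla marker Twist1 were higher in cKO. The epithelial marker Cdh1 and Alpl, from the cartilage and bone list, were lower. The part of these cells in the values of the 10 genes was not tested.

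The members of each enzyme family were next compared within a library, as shares of the family's summed TPM, which removes any factor common to the family. With 3 libraries against 3 the exact permutation test cannot give a p below 0.1, and the 13 shares were adjusted together, so none could be called. The transporter family was taken as class I (Slc2a1 to Slc2a4), and of its TPM Slc2a1 held 89.1%, 83.1% and 90.9% in control 1, 2 and 3 and 77.7%, 60.6% and 88.1% in cKO 1, 2 and 3. This share of class I was lowest in cKO 2 and cKO 1 and within the control range in cKO 3, with 87.7% ± 4.13 in control and 75.5% ± 13.9 in cKO (SD, n = 3 each; exact two-sided permutation test, p = 0.2, adjusted p = 0.487). Slc2a3, the high-affinity transporter GLUT3 of neurons and blood cells, held 3.06%, 4.58% and 2.03% in control 1, 2 and 3 and 8.77%, 19.0% and 2.58% in cKO 1, 2 and 3. Shares of 1 sum move against each other, so a high Slc2a3 share beside a low Slc2a1 share is partly built in. In cKO 1 and cKO 2 Slc2a3 was at 7.12 and 7.74 TPM, while Slc2a1 was at 63.1 and 24.7 TPM. Slc2a8, a transporter of class III named after its values were seen, was more abundant than Slc2a3 and Slc2a4, at 26.2 ± 1.91 TPM in control and 26.7 ± 5.46 TPM in cKO (SD, n = 3 each). Of the summed TPM of the 12 Slc2a genes in the table, some of which carry other sugars, Slc2a1 held 65.2%, 48.4% and 59.8% in control 1, 2 and 3 and 51.5%, 30.8% and 58.5% in cKO 1, 2 and 3. By this measure, added after the data were seen, the mean was 57.8% ± 8.58 in control and 46.9% ± 14.4 in cKO (SD, n = 3 each; exact two-sided permutation test, p = 0.4, not adjusted with the 13). In CPM Slc2a3 was measured at 6.15, 5.63 and 3.66 CPM in the control libraries and 13.9, 16.4 and 5.14 CPM in the cKO libraries, and its fold change on the log2 scale was 1.20 (SE 0.44, adjusted p = 0.16). Slc2a4, the insulin-regulated transporter GLUT4, held 9.07% ± 2.88 in control and 14.4% ± 5.54 in cKO (SD, n = 3 each; exact two-sided permutation test, p = 0.2, adjusted p = 0.487).

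In the hexokinase family, Hk2 held 66.7%, 59.0% and 66.3% in control 1, 2 and 3 and 59.5%, 55.5% and 75.0% in cKO 1, 2 and 3, and Hk1 nearly all the rest. Hk2 was therefore the main hexokinase transcript in each library, with 64.0% ± 4.32 in control and 63.3% ± 10.3 in cKO (SD, n = 3 each; exact two-sided permutation test, p = 1, adjusted p = 1). In the phosphofructokinase family, Pfkl held 54.0% ± 7.87 in control and 47.2% ± 9.61 in cKO (SD, n = 3 each; exact two-sided permutation test, p = 0.3, adjusted p = 0.487), Pfkm, the muscle form, 34.7% ± 6.97 in control and 37.9% ± 5.18 in cKO (SD, n = 3 each; exact two-sided permutation test, p = 0.6, adjusted p = 0.709), and Pfkp 11.2% ± 1.07 in control and 14.9% ± 5.30 in cKO (SD, n = 3 each; exact two-sided permutation test, p = 0.4, adjusted p = 0.52). The share of Pfkp reached 19.99% in cKO 3 and was lowest, at 9.42%, in cKO 2.

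Eno1 held 95.7%, 96.2% and 96.7% in control 1, 2 and 3 and 92.0%, 96.2% and 92.0% in cKO 1, 2 and 3 of enolase TPM. The share of Eno1 in cKO 1 and cKO 3 was below each control, and that in cKO 2 was among them. Eno2, the neuronal enolase, was the only gene whose share did not overlap between groups, with 0.456% ± 0.0769 in control and 1.13% ± 0.495 in cKO (SD, n = 3 each; exact two-sided permutation test, p = 0.1, adjusted p = 0.487). Its level was 4.08, 5.75 and 5.50 CPM in the control libraries and 10.1, 9.25 and 10.5 CPM in the cKO libraries, and its fold change on the log2 scale was 0.96 (SE 0.22, adjusted p = 0.0771). DESeq2 called Eno2 higher in cKO (adjusted p = 0.00393), and the replicate block gave an adjusted p of 0.0511. Eno3, the muscle enolase, was measured at 83.1, 68.9 and 69.1 CPM in the control libraries and 105, 101 and 86.5 CPM in the cKO libraries, and its fold change on the log2 scale was 0.41 (SE 0.13, adjusted p = 0.129). Ldha held 76.0% ± 3.97 in control and 77.1% ± 3.31 in cKO (SD, n = 3 each; exact two-sided permutation test, p = 0.7, adjusted p = 0.758) of lactate dehydrogenase TPM, the rest being Ldhb, and cKO 2 with 80.8% and control 1 with 80.2% were the highest. Aldoa and Pkm made up at least 98.0% and 99.8% of their families in each library, with Aldoc as the other aldolase.

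**Figure D4:**
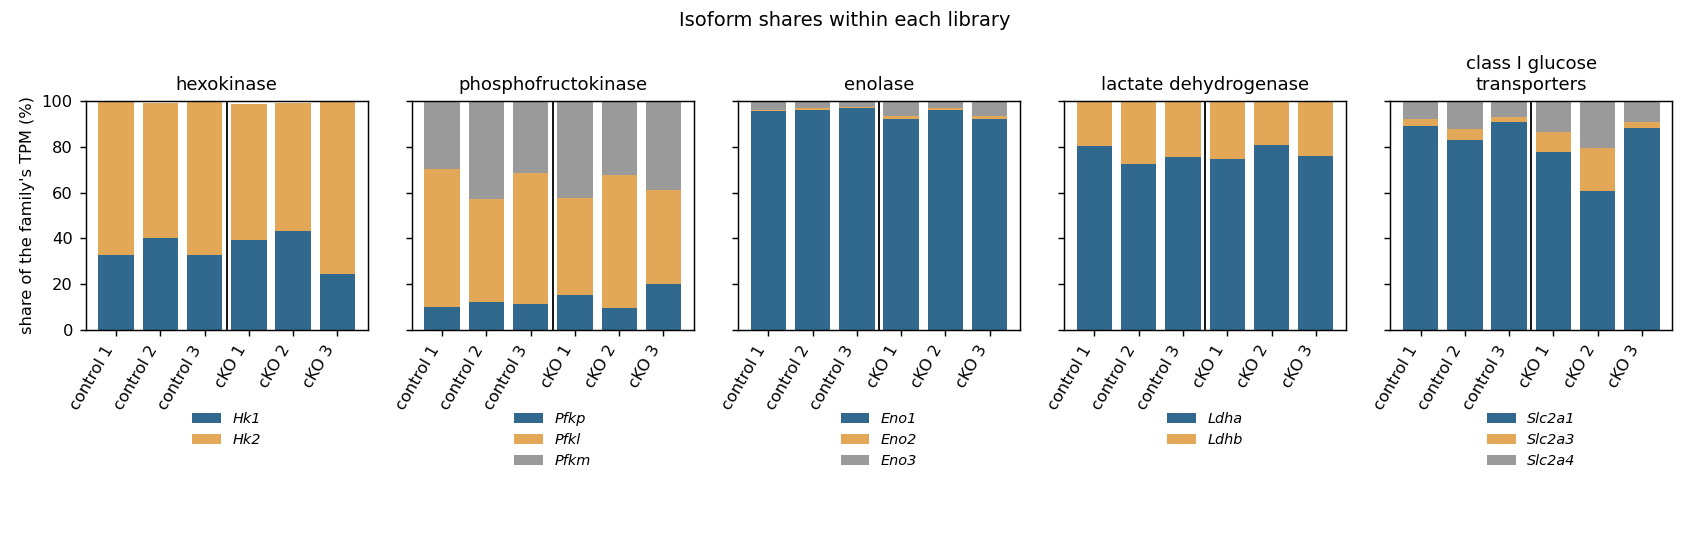
Share of each gene in the summed TPM of its family (%, stacked) in each of the 6 libraries, for 5 families, with genes under 1 TPM in both groups not drawn. The transporter panel holds class I alone, without Slc2a8 and other Slc2a genes. Hk2, Eno1 and Ldha have the largest share of their families in each library, and Slc2a1 has its lowest share of class I, 60.6%, in cKO 2.

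Around the 10 genes, 100 further genes of glucose metabolism were listed in 7 lists, of which 83 passed the filter, and 19 hypoxia targets in a list of their own, of which 18 passed. Of the 83 glucose metabolism genes, 0 were called by edgeR without the block and 20 (24.1%) had an unadjusted p of at most 0.05, where 24.5% of all tested genes did. With the replicate block 5 were called (6.02%), 2 higher and 3 lower in cKO, against 9.87% of all genes. DESeq2 called 9 (10.8%), 4 higher and 5 lower, against 12.6%. The groups did not overlap for 25 of them (30.1%), against 30.7%. These shares lay near or below those over all genes, and the genes called were both higher and lower in cKO.

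Lactate export and the fate of pyruvate follow Ldha in the pathway, and their list held 2 of the called genes. Slc16a1, the monocarboxylate transporter MCT1, was measured at 88.4, 67.1 and 86.4 CPM in control 1, 2 and 3 and 41.6, 54.4 and 52.2 CPM in cKO 1, 2 and 3. Each cKO library lay below each control, and the log2 fold change of Slc16a1 was -0.71 (SE 0.16, adjusted p = 0.0737). Slc16a1 was called lower with the replicate block (adjusted p = 0.0477) and in DESeq2 (adjusted p = 0.00454). Emb, embigin, an accessory protein of monocarboxylate transporters, was measured at 19.2, 19.3 and 11.6 CPM in the control libraries and 32.1, 39.3 and 22.7 CPM in the cKO libraries, and it was called higher with the block (adjusted p = 0.0186) and in DESeq2 (adjusted p = 0.0239) but not without (adjusted p = 0.114). Of the other 16 genes of this list, which hold the pyruvate dehydrogenase complex with its kinases and phosphatases and the mitochondrial pyruvate carrier, none was called by the block or DESeq2.

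In the glycogen list, Gyg, glycogenin, the protein primer on which glycogen is built, was measured at 39.1, 32.4 and 41.1 CPM in the control libraries and 23.5, 25.0 and 22.4 CPM in the cKO libraries. Its log2 fold change was -0.67 (SE 0.14, adjusted p = 0.0679), and it was called lower with the block (adjusted p = 0.046) and in DESeq2 (adjusted p = 0.00286). Pygl, the liver glycogen phosphorylase, was measured at 4.46, 3.69 and 1.96 CPM in the control libraries and 17.1, 10.9 and 4.09 CPM in the cKO libraries and was called higher with the block (adjusted p = 0.0213) and in DESeq2 (adjusted p = 0.0242). Phkb, a subunit of phosphorylase kinase, was called lower in DESeq2 only (adjusted p = 0.0105), and its fold change on the log2 scale was -0.44 (SE 0.10, adjusted p = 0.0803). Pygm, the muscle glycogen phosphorylase, named after its values were seen, was called higher in DESeq2 only (adjusted p = 0.0376), at 1.57, 1.09 and 0.948 CPM in the control libraries and 3.10, 4.59 and 2.04 CPM in the cKO libraries. In the pentose phosphate list, Pgd, which makes NADPH from 6-phosphogluconate, was called lower in DESeq2 only (adjusted p = 0.037), at 98.1, 93.2 and 139 CPM in the control libraries and 72.1, 73.3 and 74.2 CPM in the cKO libraries. Of the regulators of flux, Tigar, which lowers fructose 2,6-bisphosphate, was called lower in DESeq2 only (adjusted p = 0.00869), and its fold change on the log2 scale was -0.85 (SE 0.20, adjusted p = 0.0808). In the lists of gluconeogenesis (3 tested) and of other sugar transporters (10 tested), neither the block nor DESeq2 called a gene. Hif1a, the oxygen-regulated subunit of HIF1, was measured at 216, 202 and 209.7 CPM in the control libraries and 168, 178 and 166 CPM in the cKO libraries and its fold change on the log2 scale was -0.29 (SE 0.099, adjusted p = 0.139).

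Of the 18 hypoxia targets outside glycolysis that were tested, edgeR without the block called 0 and 5 (27.8%) had an unadjusted p of at most 0.05, where 24.5% of all tested genes did. The block called 1 higher and 1 lower in cKO (11.1%, against 9.87% of all genes), and DESeq2 called 3 higher and 2 lower (27.8%, against 12.6%). P4ha2, a collagen prolyl hydroxylase subunit, was measured at 149.6, 184 and 275 CPM in the control libraries and 71.1, 107 and 117 CPM in the cKO libraries and was called lower with the block (adjusted p = 0.00966) and in DESeq2 (adjusted p = 0.00636). Egln3, a HIF prolyl hydroxylase named after its values were seen, was measured at 1.76, 1.76 and 1.77 CPM in the control libraries and 9.37, 3.46 and 6.20 CPM in the cKO libraries and was called higher with the block (adjusted p = 0.0337) and in DESeq2 (adjusted p = 0.00145). DESeq2 alone also called Ndrg1 lower (adjusted p = 0.00897) and Bnip3l (adjusted p = 0.0433) and Car12 (adjusted p = 0.0488) higher. Of the 14 other glycolysis genes, Pgam2, the muscle phosphoglycerate mutase, was called lower with the block alone (adjusted p = 0.0492), at 8.92, 9.21 and 15.6 CPM in the control libraries and 3.42, 5.54 and 8.83 CPM in the cKO libraries.

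**Figure D5:**
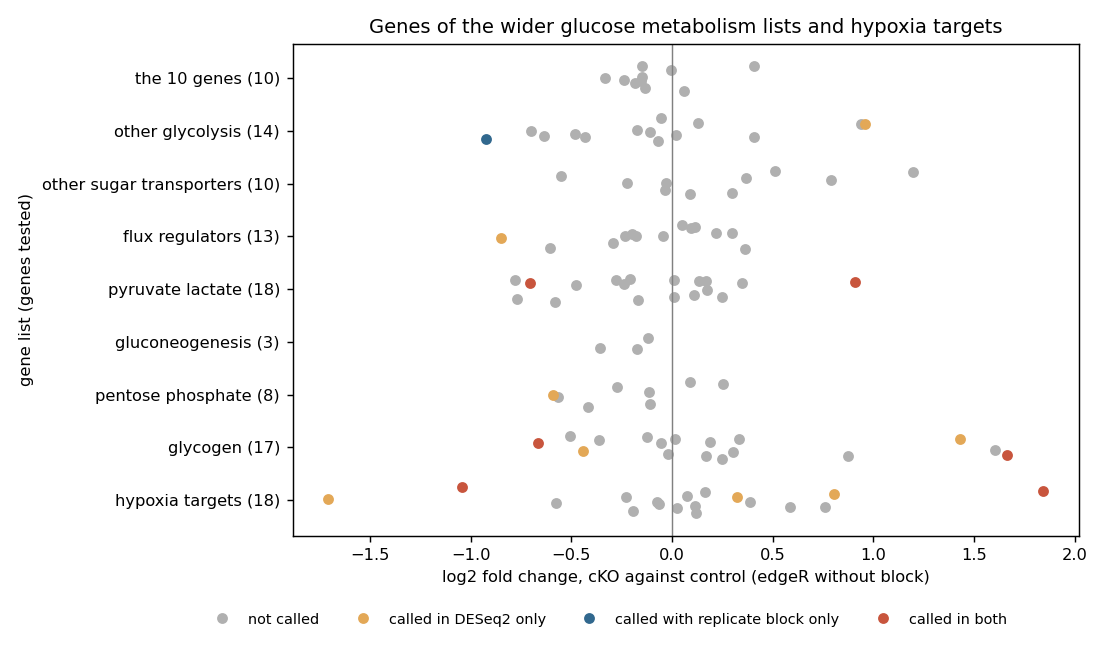
Log2 fold change (cKO against control, edgeR without block) of the 10 genes and of the genes of 7 lists of glucose metabolism and 1 of hypoxia targets, 1 point per gene, with the number tested in brackets. Colours mark genes called in DESeq2, with the replicate block or in both, and the 10 genes are all grey and lie between -0.33 and 0.41.

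The counting also bears on these values. Gene-level counts do not separate splice forms, so the M1 and M2 forms of Pkm were not told apart. Near-identical copies took few reads in the table, with 0 to 3 counts for Eno1b and 0 to 1 for Aldoart2. Beside Pfkp, exons of Slc2a1, Hk1 and Aldoa overlap antisense genes, and those of Pkm a gene on the same strand, and these genes were not analysed here.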

How the data were processed

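RNA of laser-captured IEE was sequenced by the study from 3 control and 3 cKO samples, labelled as biological replicates, and how many embryos each library holds is not given in the sources used here. The authors deposited 1 table of 18152 genes with estimated counts of reads per gene, not normalised, of which 10.9% to 11.5% per library were not whole. The deposited TPM values are the authors' length-scaled transcript numbers. The 6 FPKM columns and 6 columns of group averages were not used. The submitters' processing notes name BWA 0.7.12, Picard 2.6.0 and StringTie, with no role, and the genome build and the strand setting are not given in the sources used here.

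Estimated counts were rounded, filtered with filterByExpr (minimum count 10, 14131 genes kept) and scaled by TMM in edgeR 4.0.16 (R 4.3.3). Genotypes were compared over all genes by robust quasi-likelihood F-tests, two-sided, with Benjamini-Hochberg adjustment, and a gene was called at an adjusted p of at most 0.05. CPM use TMM-scaled totals. The SE is the absolute log2 fold change over the square root of F, and the 95% interval uses the t distribution on the fit's degrees of freedom. Alternatives were DESeq2 1.42.0, limma-voom and limma on TPM (3.58.1), a replicate block, other scalings and filters, and omission of each library. A share of Slc2a1 among all Slc2a genes was added after the data were seen.

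The labels do not say whether same-numbered libraries are pairs. Deviations from group means of same-numbered libraries correlated at 0.135, 0.324 and 0.499. However, cKO 1 correlated at 0.144 with control 2, so these values do not settle the pairing. The main fit has genotype only, and the replicate number enters as a block in an alternative fit. Libraries of 1 group differed by 36.0 to 76.7 in chi-square per gene, and none was a duplicate.

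The 10 genes, the gene lists and the tests were chosen with earlier results of these data known. Genes were named by rule: the 10 genes, Kdf1, family members with a mean of at least 1 TPM in a group, the up to 4 genes of lowest unadjusted p per wider list with a mean of at least 5 CPM, and the 2 most abundant genes of each marker list. Genes named outside it (Gapdh, Egln3, Pygm, Slc2a8 and the marker genes called) were chosen after their values were seen.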

Additional observations from a re-analysis of the deposited data

How the results depend on the processing

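None of the 10 genes was called under any of 16 alternatives, and the lowest adjusted p of any of them was 0.125. The sign was less stable. The log2 fold change of Pgk1, -0.0031 as reported, was 0.015 in DESeq2, 0.015 with DESeq2's size factors in edgeR, 0.029 with upper quartile scaling, 0.050 with library size alone and 0.013 with at least 10 counts in every library. That of Ldha, 0.058 as reported, was -0.0042 in limma-voom and -0.012 with the replicate block. Over the omission of each library in turn it ranged from -0.73 to 0.053 for Slc2a1, -0.20 to 0.0076 for Hk1, -0.37 to 0.054 for Hk2, -0.53 to 0.0031 for Pfkl, -0.33 to 0.22 for Pgk1, -0.61 to 0.071 for Eno1, -0.51 to 0.089 for Pkm and -0.31 to 0.28 for Ldha, while the median of the 10 genes ranged from -0.32 to 0.040. Pfkp (0.24 to 0.59) stayed above 0 and Aldoa (-0.42 to -0.074) below 0. With each library omitted, the difference in mean share ranged from -3.51 to 6.01 percentage points for Hk1, -6.54 to 3.21 for Hk2, -0.861 to 3.10 for Ldha and -3.10 to 0.861 for Ldhb. The causes of these changes of sign were not tested.

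The count of called genes depended on the fit far more. Of all genes tested, 77 were called as reported, against 1786 in DESeq2, 1395 with the replicate block, 132 with no filter on low counts, 17 with limma on log2(TPM + 1), 9 with library size alone, 7 with DESeq2's size factors, 6 in limma-voom, 6 with at least 10 counts in every library and 1 to 623 when 1 library was left out, the highest without cKO 3. Of the genes of the 7 glucose metabolism lists and the hypoxia targets together, 0 were called as reported, 14 in DESeq2, 7 with the replicate block and 0 to 2 with 1 library left out. Of the marker genes, 8 were called as reported, 33 in DESeq2, 28 with the replicate block, 4 with limma on log2(TPM + 1), 1 with library size alone, 0 in limma-voom, with DESeq2's size factors and with at least 10 counts in every library, and 0 to 18 with 1 library left out. The block changed the call of none of the 10 genes. With 3 libraries a group and a biological coefficient of variation of 25.4%, spread between libraries rather than depth limited the intervals, since each of the 10 genes held at least 324 counts in each library.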
